A study of Mus musculus with 15 samples.

Results

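The change in the transcriptome between WT zygotes and WT 2-cell embryos of the mouse was examined in 4 RNA-seq libraries, 2 per stage, which were taken by their stage and genotype from the 8 RNA-seq libraries among the 15 samples of the series. All 14392 genes of the expression table were used. The study concerns USP16, a deubiquitinase of histone H2A, and also profiled embryos of mothers without oocyte Usp16 and the H2AK119ub1 mark in oocytes and embryos. Of these other samples, only the 4 RNA-seq libraries without maternal Usp16 were used, in 1 alternative fit. The question addressed by the 4 WT libraries is which transcripts rise and which fall when a normal embryo passes from the zygote to the 2-cell stage.

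The WT embryos carried no Usp16 deletion. Females of the C57BL/6 background, 21 to 23 days old, were superovulated with 5 IU of PMSG and, 44 h later, hCG, and were mated with WT males of 10 to 12 weeks. Zygotes were collected from the oviduct 28 h after hCG, and the hour at which 2-cell embryos were collected is not given in the sources used here. Each library was a pool of 10 embryos without their zona pellucida, so differences between embryos cannot be seen. Nothing states that the replicates came from separate litters or days, so the p-values below measure only the spread between these libraries, which may be technical.

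Transcription is nearly silent in the fully grown oocyte, and the zygote begins life with mRNAs and proteins that its mother stored. During the maternal-to-zygotic transition these stored mRNAs are cleared, while zygotic genome activation (ZGA), whose main wave in the mouse comes at the 2-cell stage, supplies transcripts from the embryo's own genome. Many stored mRNAs also change the length of their poly(A) tail without being made or destroyed. The libraries were made by Smart-seq2 with oligo-dT primers, so a level here is that of transcripts with a poly(A) tail long enough to be primed, and tail length and abundance cannot be told apart.

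The values are FPKM (fragments counted per transcript length and per mapped fragments, so that levels can be compared between genes), in which the authors had set every value under 1 to 1. This lowest value is called the floor, and ratios of means count a value at the floor as 1. The floor held 4423 and 4747 genes of the zygote libraries, and 1642 and 1716 of the 2-cell libraries. The sum of FPKM was between 547752 and 592286, and no read counts are given, so the depth is unknown. Genes are not independent replicates, and over them the Spearman coefficient was 0.979 between the zygote libraries, 0.963 between the 2-cell libraries and 0.655 to 0.662 between the stages. The replicates differed by more than 3-fold for 41 genes in zygotes and 199 genes in 2-cell embryos. In bulk embryo pools, fewer embryos or cells with a transcript and less transcript per cell cannot be told apart.

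Some markers of both stages followed the labels, while others in the lists below, such as Zp3, Arg2 and Zscan4b, did not pass the test. Oocyte transcripts such as Oosp1, Dppa3 and Btg4 were at 5126 FPKM or more in both zygote libraries, although Oosp1 was not called lower in 2-cell embryos. The 2-cell markers Zfp352, Tdpoz1 and Zscan4a were at or near the floor in zygotes. In 2-cell embryos Zscan4a, the lowest of these, was at 32.9 and 40.1 FPKM. Usp16 itself was measured at 184 and 187 FPKM in zygotes and 168 and 183 in 2-cell embryos (log2 fold change -0.08, standard error 0.11, limma adjusted p = 0.566). The housekeeping transcripts Gapdh and Actb did not pass the test either, although Gapdh was called higher with a filter on low values, in the fit of all 8 libraries and without zygote replicate 1. Their levels were 39.8 and 22.7 against 58.2 and 61.5 FPKM for Gapdh (limma adjusted p = 0.0911), and 82.4 and 72.6 against 92.6 and 96.4 for Actb (limma adjusted p = 0.134).

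Of the 14392 genes, 5049 were higher and 2311 lower in 2-cell embryos than in zygotes, and 7032 passed in neither direction (limma on log2(FPKM + 1), two-sided, Benjamini-Hochberg adjusted p under 0.05). The share of genes called was thus 35.1% for higher and 16.1% for lower, and every count of list members below is to be read against these shares. For every called gene, the ranges of both stages did not overlap, but the same held for many genes that were not called. Over all 14392 genes, 7114 had both 2-cell libraries above both zygote libraries, and 3796 had them below. Rises were larger than falls. Among the called genes, 1238 were more than 10-fold higher and 130 more than 10-fold lower, and the median ratio of means was 4.64 for higher and 3.1 for lower genes. The study defines ZGA genes by a mean more than 3-fold higher in 2-cell embryos. This definition, which takes no account of the spread, held for 3739 genes (26.0%), and its mirror image for 1263 genes (8.78%). Of these, 3540 and 1216 also passed limma.

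The counts of limma rest on few degrees of freedom. Without zygote replicate 1 they were 1674 higher and 782 lower, without zygote replicate 2 they were 1596 and 870, without 2-cell replicate 1 they were 4807 and 1052, and without 2-cell replicate 2 they were 4956 and 1087. In each of these fits the lone library is assumed to vary like the other stage, and 1 residual degree of freedom is left. Genes at the floor in zygotes show no spread in the fits without a 2-cell library. A call kept there is no support. Of the 202 named genes that were called, 96 kept their call in all 4 of these fits, and 0 changed sign in any fit. Where the ranges of both stages do not overlap, leaving out a library cannot change the sign. The 0 was thus largely fixed in advance and is no support for the calls. Of the 39 named genes that were not called, 14 changed sign in at least 1 fit. Quantile normalization, which gives all libraries the same distribution of values, called 3872 genes higher and 4408 lower. The split of calls therefore depends on how libraries are scaled. The median log2 fold change of all genes was 0.275, and was between -0.067 and 0.536 under the other settings.

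**Figure D1:**
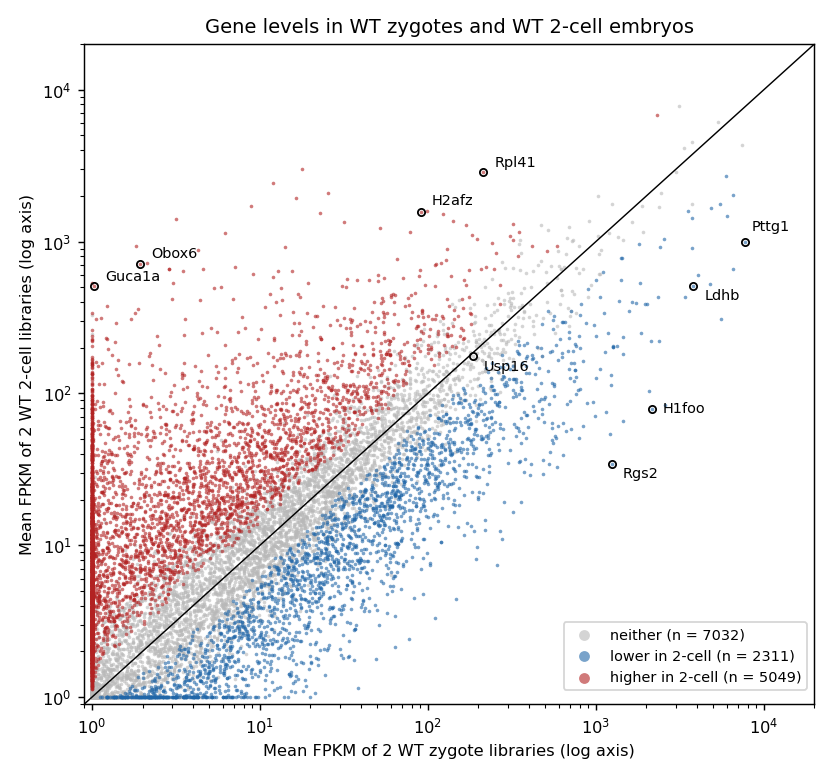
Mean FPKM of each of the 14392 genes in the 2 WT zygote libraries (x axis) and in the 2 WT 2-cell libraries (y axis), both on log axes, with the line of equal levels. Red and blue points are the 5049 genes called higher and the 2311 called lower in 2-cell embryos, grey points the other 7032, and the column of points at the left edge holds genes at the floor of 1 in zygotes.

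The genes that fell had filled most of the zygote transcriptome. Called lower genes held 53.9% and 55.2% of the FPKM sum in the zygote libraries, and 14.6% in each 2-cell library. Called higher genes held 8.5% and 8.17% of the sum in zygotes, and 45.4% and 46.6% in 2-cell embryos. Both sets were picked by their change in these same libraries. The direction of these shifts thus follows from the choice, and the shares only describe their size. Of the 77 genes with a zygote mean above 1000 FPKM, 54 (70.1%) were lower and 1 was higher. Among the 100 most abundant zygote genes, 71 were lower and 1 higher, whereas the 100 most abundant 2-cell genes comprised 44 that were higher and 14 that were lower. Only 37 genes belonged to both groups of 100. Each group was picked by its level at 1 stage, which favours genes that are higher at that stage, so these counts are a description too.

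Of the 5049 genes that were higher, 2169 were at the floor in both zygote libraries and 1104 others had a zygote mean of up to 3 FPKM. At the floor both libraries of a stage have the same value, so they show no spread. The standard errors and p-values of such genes may therefore be too low. Of the 4206 genes at the floor in both zygote libraries, 2169 (51.6%) were called higher, and 548 of the 4206 were above 10 FPKM in both 2-cell libraries. In the opposite direction, 976 genes were at the floor in both 2-cell libraries and 213 of them were called lower, but only 3 had been above 10 FPKM in both zygote libraries. The median level of lower genes went from 26.7 to 7.69 FPKM. A gene at the floor in zygotes cannot fall, and the zygote values enter both the level and the call, so the shares by level are a description. Genes that every cell uses, such as Rps27 of the small ribosomal subunit, Mars (a tRNA synthetase) and Psmd13 of the proteasome, were also listed at 1 in both zygote libraries, so a value at the floor does not show that a transcript was absent.

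**Figure D2:**
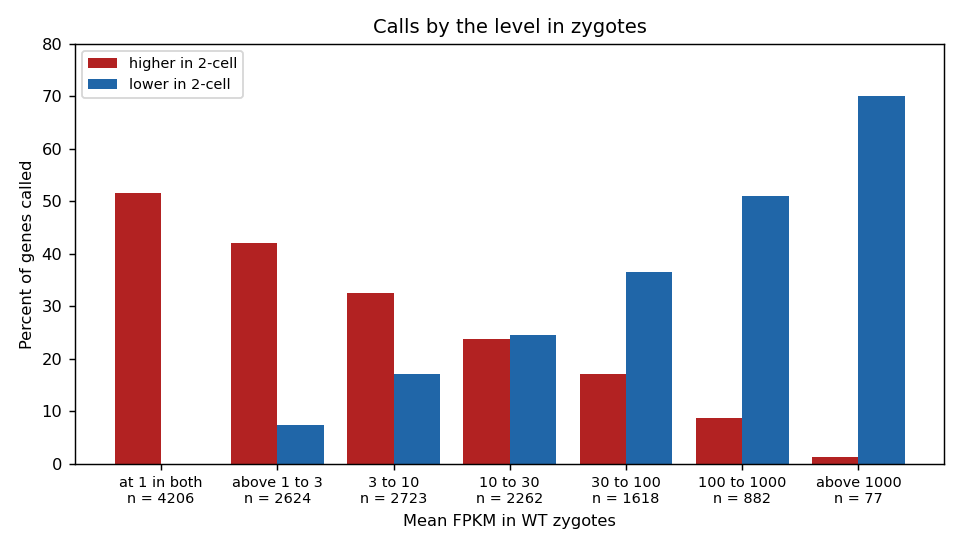
Percent of genes called higher (red) or lower (blue) in WT 2-cell embryos, by the mean FPKM of the gene in WT zygotes, with the number of genes in each class under the axis. The share called higher went from 51.6% of genes at the floor to 1.3% of those above 1000 FPKM, and the share called lower from 0% to 70.1%.

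The genes with the largest rises went from the floor or close to it to more than 170 FPKM in both 2-cell libraries. Guca1a, a calcium-binding activator of guanylate cyclase best known from photoreceptors, lies on chromosome 17, 47531509 to 47537533 of mm9. Its FPKM was 1.06 and 1 in the zygote libraries and 548 and 464 in the 2-cell libraries, a ratio of 491 (log2 fold change 7.96, standard error 0.13, limma adjusted p = 0.00266). Obox6, an oocyte-type homeobox gene on chromosome 7, 16418595 to 16425027, was measured at 2.03 and 1.84 FPKM in zygotes and 725 and 707 in 2-cell embryos, a ratio of 370 (log2 fold change 7.93, standard error 0.097, limma adjusted p = 0.00266). Crxos1, another homeobox transcript, went from 2.19 and 2.04 to 788 and 658 FPKM. As its name states, Crxos1 lies opposite to Crx, and Smart-seq2 libraries do not keep the strand, so reads of both genes cannot be told apart. Zfp352, a zinc finger gene long used as a 2-cell marker, lies on chromosome 4, 89885511 to 89892393 and went from 1.45 and 1 to 280.3 and 468 FPKM, with a ratio of 306 (log2 fold change 7.36, standard error 0.33, limma adjusted p = 0.00266).

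Other genes of this group had varied functions. Rab20, a small GTPase of vesicle traffic, was listed at 1 in both zygote libraries and at 282 and 245 FPKM in 2-cell embryos. Gcsh, a carrier protein of the mitochondrial glycine cleavage system, went from 3.34 and 2.41 to 645 and 681 FPKM. Spic, an Ets-family transcription factor, went from 1.10 and 1.70 to 280.1 and 301, and Snhg3, a host transcript of small nucleolar RNAs, from 3.74 and 4.82 to 1048 and 718. Rps27, Bex6 and Rfpl4b were listed at 1 in both zygote libraries and were between 170 and 305 FPKM in 2-cell embryos, while H47 went from 1.11 and 1 to 269 and 351 FPKM. Each of these genes was under 5 FPKM in both zygote libraries and above 170 in both 2-cell libraries, and the calls were kept with each library left out. Rab20, Rps27, Bex6 and Rfpl4b, at the floor in zygotes, show no spread in the fits without a 2-cell library. Their calls there were largely fixed in advance and are no support.

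Among rising genes with the highest levels in 2-cell embryos, 2 of the 6 named encode ribosomal proteins. Rpl41 went from 241 and 187 to 3320.0 and 2389 FPKM and Rplp1, a protein of the ribosomal stalk, from 117 and 81.9 to 1796 and 1366. Mt1 encodes a metallothionein, which binds zinc and other metals, and went from 21.9 and 11 to 2006 and 1851 FPKM, 117-fold higher. Dcdc2c, with a doublecortin domain, went from 12.9 and 10.9 to 1913 and 2913, and D17Ertd648e from 27.1 and 23.4 to 1880.0 and 2275. H2afz, which encodes the histone variant H2A.Z, lies on chromosome 3, 137527451 to 137529886 and was 17.1-fold higher, with 98.2 and 83.9 FPKM in zygotes and 1626 and 1492 in 2-cell embryos (log2 fold change 4.09, standard error 0.15, limma adjusted p = 0.00266). The call of Rpl41 was lost with either zygote library left out (limma adjusted p 0.054 to 0.0586 in those fits).

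The genes with the largest falls were above 30 FPKM in both zygote libraries and under 90 in both 2-cell libraries. Rgs2, a regulator of G-protein signalling, lies on chromosome 1, 145846468 to 145851291. Its FPKM was 1071 and 1425 in the zygote libraries and 35.9 and 33.1 in the 2-cell libraries, a 36.2-fold fall (log2 fold change -5.12, standard error 0.20, limma adjusted p = 0.00266). H1foo, the linker histone of the oocyte, lies on chromosome 6, 115894956 to 115900254 and dropped 27.4-fold, from 1759 and 2544 to 74.5 and 82.7 FPKM (log2 fold change -4.74, standard error 0.25, limma adjusted p = 0.0028). Itpr2, a receptor that releases calcium from internal stores, went from 63.7 and 63.4 to 1.97 and 2.29 FPKM, and the mismatch repair gene Pms1 from 33.7 and 42.9 to 1.29 and 1. Casp8, an initiator caspase, went from 48.2 and 50.1 to 1.26 and 2.32, and Neil3, a DNA glycosylase, from 282 and 258 to 10.6 and 14.2. The oocyte homeobox gene Obox2 went from 1377 and 1521 to 70.8 and 60.8 FPKM, Pfdn4, a subunit of the prefoldin chaperone, from 862 and 1558 to 61.8 and 46.5, and Nsdhl, an enzyme of cholesterol synthesis, from 42.6 and 30.4 to 2.47 and 1.03. Atpbd4 went from 289.8 and 260.4 to 12.2 and 9.77 and Gpr1 from 223 and 161 to 7.58 and 8.61. Apoo-ps is a pseudogene whose reads may be shared with its parent, and its values of 114 and 40.3 FPKM in zygotes and 3.82 and 1 in 2-cell embryos are uncertain. The calls of Casp8 and Nsdhl were lost with either zygote library left out, that of Pfdn4 with either 2-cell library left out and that of Apoo-ps with any of the 4 libraries left out (limma adjusted p 0.0512 to 0.146 in those fits).

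The most abundant transcripts among those that fell more than 3-fold included regulators of the egg. Pttg1 encodes securin, the inhibitor of separase, and went from 7696 and 7668 to 1121 and 866 FPKM, 7.73-fold lower (log2 fold change -2.96, standard error 0.27, limma adjusted p = 0.00606). Bcl2l10, an oocyte member of the Bcl-2 family, went from 5989.7 and 7138 to 647 and 662, and Rfpl4, an oocyte RING-finger gene, from 4994 and 6183 to 271 and 347. Btg4, the adaptor that recruits the deadenylase to maternal mRNAs, fell 3.10-fold, from 5126 and 5780.1 to 2058 and 1457 FPKM (log2 fold change -1.65, standard error 0.31, limma adjusted p = 0.0271). Mphosph6 went from 5381 and 6700.0 to 1444 and 1482 and Obox5 from 4252 and 3812 to 567 and 629. All 6 were still above 250 FPKM in both 2-cell libraries. The calls of Pttg1, Bcl2l10, Btg4 and Obox5 were lost with either zygote library left out and that of Mphosph6 with any of the 4 libraries left out (limma adjusted p 0.053 to 0.203 in those fits). That of Btg4 was also lost after quantile normalization and with the replicate number as a block, and that of Rfpl4 was kept throughout.

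**Figure D3:**
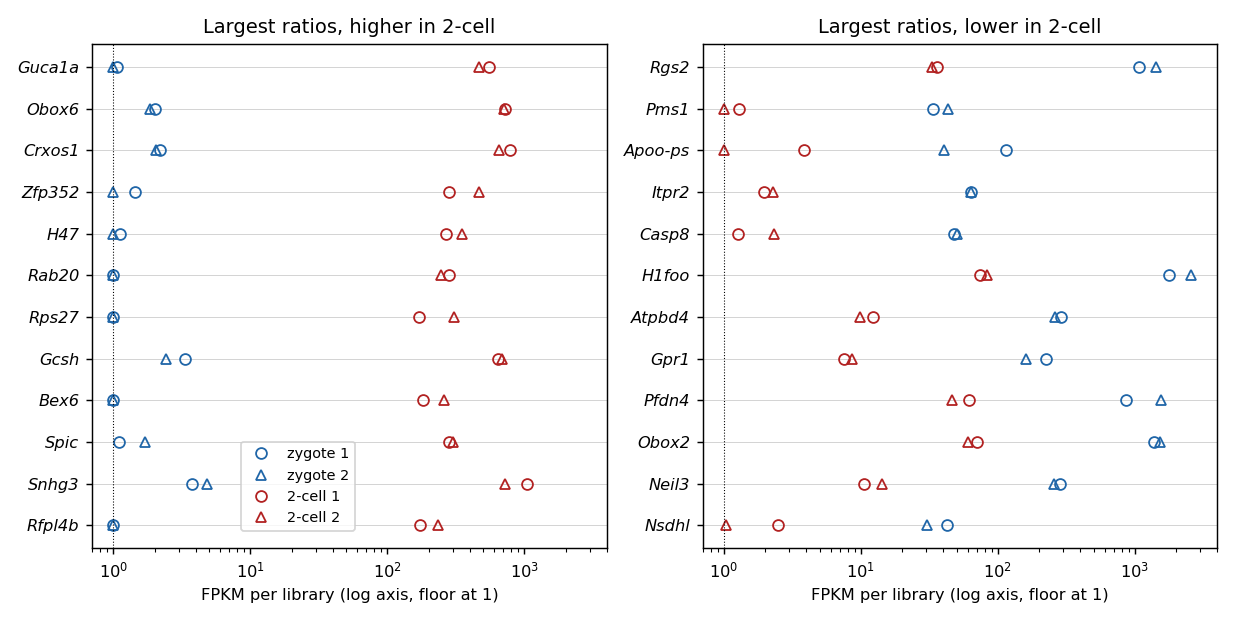
FPKM in each of the 4 libraries (log axis; circles replicate 1, triangles replicate 2; blue zygotes, red 2-cell embryos) for the 12 named genes with the largest ratios in each direction. In the left panel every zygote value is under 5 and every 2-cell value above 170, whereas in the right panel many 2-cell values are still above the floor.

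The promoters of 4 of these genes are shown to set those of the rising Zfp352 and H2afz beside those of the falling Rgs2 and H1foo. Each line gives the 250 bases before and 50 bases after the start of the gene from RefSeq on GRCm38.p6, a later build than the mm9 of the expression table, from 5′ to 3′ on the strand of the gene. Capitals mark matches, on either strand, to the GC box GGGCGG, the CCAAT box CCAAT, the TATA box TATAAA, the E box CACGTG, or TAATCC, a motif that homeobox proteins of the paired type with lysine at the key position can bind. Matches to different motifs may overlap.
Zfp352, chr4:90218570-90218869, plus strand: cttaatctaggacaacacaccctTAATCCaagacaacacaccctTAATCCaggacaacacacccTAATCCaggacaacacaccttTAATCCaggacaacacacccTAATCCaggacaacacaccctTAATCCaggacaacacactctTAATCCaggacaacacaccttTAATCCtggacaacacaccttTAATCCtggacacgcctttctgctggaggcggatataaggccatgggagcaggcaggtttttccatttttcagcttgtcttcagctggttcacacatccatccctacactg
H2afz, chr3:137864237-137864536, plus strand: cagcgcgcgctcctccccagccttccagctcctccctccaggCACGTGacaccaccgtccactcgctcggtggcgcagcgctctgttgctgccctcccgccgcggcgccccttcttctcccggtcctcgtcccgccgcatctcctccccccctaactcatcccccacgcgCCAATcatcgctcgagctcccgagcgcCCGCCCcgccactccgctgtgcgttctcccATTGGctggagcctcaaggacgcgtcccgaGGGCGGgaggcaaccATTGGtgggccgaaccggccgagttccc
Rgs2, chr1:144004100-144004399, minus strand: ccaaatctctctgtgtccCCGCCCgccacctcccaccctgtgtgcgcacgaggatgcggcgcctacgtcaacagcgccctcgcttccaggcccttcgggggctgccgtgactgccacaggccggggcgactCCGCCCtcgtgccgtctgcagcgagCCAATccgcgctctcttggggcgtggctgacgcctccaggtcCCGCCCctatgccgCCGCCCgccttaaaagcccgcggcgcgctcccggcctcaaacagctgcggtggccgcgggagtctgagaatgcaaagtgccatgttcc
H1foo, chr6:115944681-115944980, plus strand: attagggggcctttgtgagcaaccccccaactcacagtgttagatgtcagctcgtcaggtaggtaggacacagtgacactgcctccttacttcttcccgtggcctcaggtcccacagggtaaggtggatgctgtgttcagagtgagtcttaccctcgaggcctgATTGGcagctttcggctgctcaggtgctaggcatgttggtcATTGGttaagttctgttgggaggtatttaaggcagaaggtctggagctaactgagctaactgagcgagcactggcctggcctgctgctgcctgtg
The Zfp352 promoter held 9 matches to TAATCC in a tandem repeat. This motif was not among those planned at first, so its high number here is not the result of a preset search. Of the 27025 promoters of this length, 7.16% held at least 1 match, and apart from Zfp352 none held more than 4. The H2afz promoter held 2 GC boxes, 3 CCAAT boxes and 1 E box, and Rgs2 held 4 GC boxes and 1 CCAAT box, so GC boxes occurred in a gene that rose and in a gene that fell. H1foo held 2 CCAAT boxes. The share of promoters with a match was 35.9% for the GC box, 37.9% for the CCAAT box, 7.24% for the E box and 14.2% for the TATA box, which none of the 4 held. A match is a string of letters and does not show that a factor binds there. Promoters were found for 79.6% of the genes, too few to compare the classes of genes, so no such comparison was made.

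Gene structure, which was known for 95.7% of the genes, differed between the classes. In the GENCODE M1 annotation of mm9, genes called higher spanned a median of 16 kb and had 7 exons in their longest transcript, while genes called lower spanned 31.6 kb and had 9 exons. Genes in neither class lay between, with 22.4 kb and 8 exons. The 1238 genes more than 10-fold higher were shorter again, with a median span of 10.1 kb and 5 exons, but the 130 genes more than 10-fold lower also had a median span of 18.5 kb and 5.5 exons. These medians are a description over genes, without a test. By chromosome, the share called higher was largest on chromosome 11, at 43.7% of 1142 genes, and smallest on chromosome 13, at 24.4% of 516. On the X chromosome, 32.4% of 509 genes were higher and 17.5% lower.

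The functions that rose and fell were described with lists of genes, whose members were counted by the test across all genes. A list is described by its counts and by its median log2 fold change beside the 0.275 of all genes, with no test of the list itself.

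**Figure D4:**
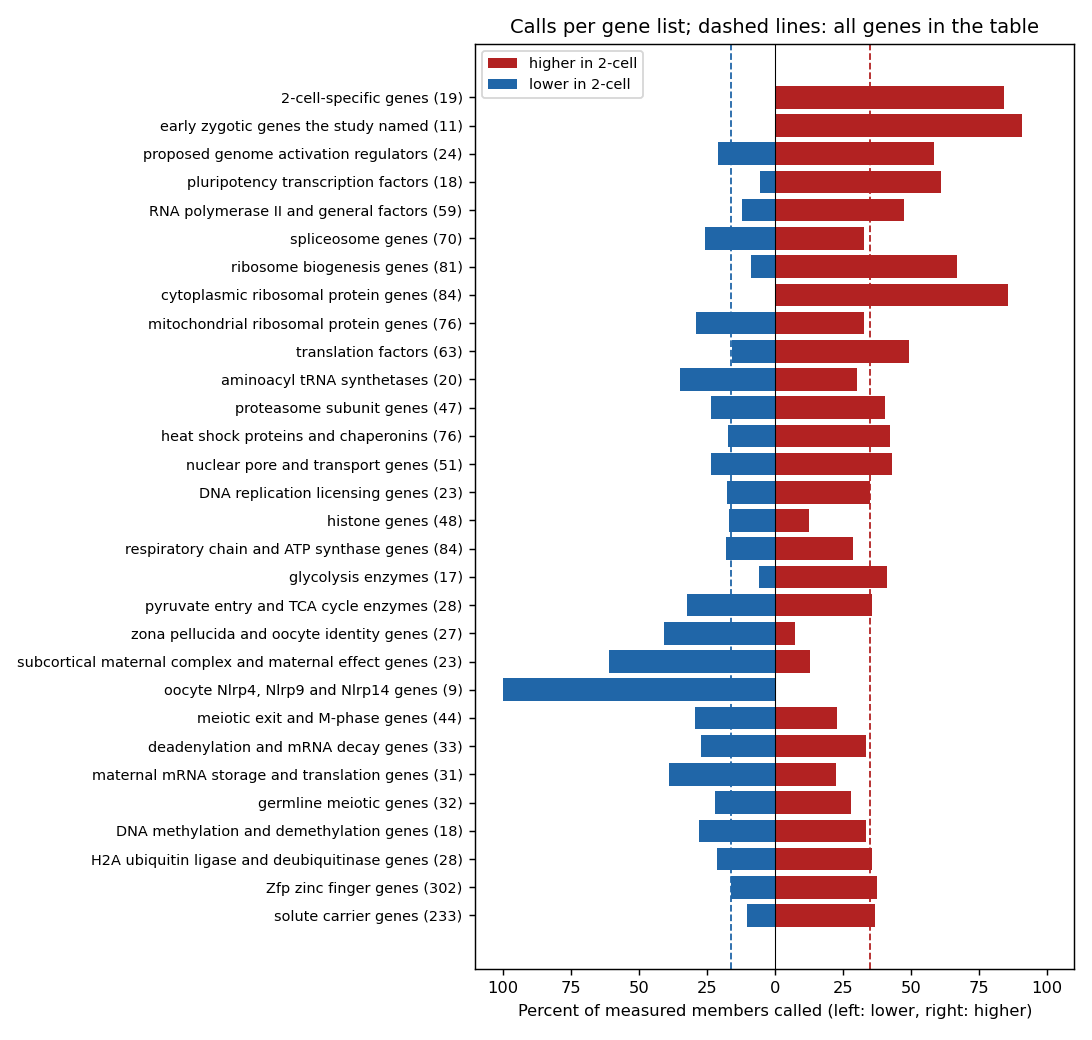
Percent of the measured members of 30 gene lists called higher (red, right) or lower (blue, left) in WT 2-cell embryos, with the number of members in brackets. Dashed lines mark the shares of all genes, 35.1% higher and 16.1% lower. The longest red bars belong to the early zygotic, 2-cell-specific and cytoplasmic ribosomal protein genes, and the longest blue bars to the oocyte Nlrp and maternal effect genes. The early zygotic and 2-cell-specific lists share members.

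Genes known for their burst of expression at the 2-cell stage rose together. Of the 19 2-cell-specific genes measured, 16 were higher and 0 lower (12 to 17 higher and 0 to 1 lower with 1 library left out), with a median log2 fold change of 3.74 and a median ratio of 23.5. Of these 19, 10 were listed at 1 in both zygote libraries. Tdpoz1, of a BTB and TRAF domain family, was listed at 1 in both zygote libraries and at 124 and 144 FPKM in 2-cell embryos, and its relative Tdpoz4 went from 1.32 and 1 to 88.3 and 87.1. Dub1a, a deubiquitinase, was listed at 1 in zygotes and at 127 and 197 FPKM in 2-cell embryos.

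The Zscan4 genes, which are linked to telomere maintenance, form a cluster of near-identical copies that may share reads, which makes each value of a single copy uncertain. Zscan4d was measured at 2.77 and 2.45 FPKM in zygotes and 42.4 and 52.5 in 2-cell embryos. Zscan4a and Zscan4c were listed at 1 in both zygote libraries, and at 32.9 and 40.1 and at 9.60 and 19.0 FPKM in 2-cell embryos. The members that did not pass were Zscan4b, at 1 and 1.34 in 2-cell embryos, the arginase gene Arg2, at 286 and 189.6 against 155 and 186, and Dux, at 1.94 and 1 against 1 and 1. Dux encodes a homeobox factor that can switch on other genes of this list. The call of Zscan4c was lost with either zygote library left out (limma adjusted p 0.101 in those fits).

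The study names a few known early zygotic genes and the Zscan4 family. Of 11 such genes, with the 5 Zscan4 copies measured counted in, 10 were higher (8 to 9 with 1 library left out). Zfp352 and the Zscan4 copies among these 11 also belong to the 2-cell-specific genes above. The study counts Klf10 and Hspa2 among its ZGA genes, which it defines by a rise between these stages. Their rise here is thus a description and no independent support. Klf10, a transcription factor of the Krüppel-like family, went from 1.85 and 2.33 to 30.7 and 32.9 FPKM (log2 fold change 3.41, standard error 0.15, limma adjusted p = 0.00266). Phlda2, an imprinted gene known for its role in the placenta, went from 23 and 21.6 to 174 and 196 and Hspa2, a chaperone of the Hsp70 family, from 1.14 and 1.12 to 30.3 and 36.9. Ankrd22 went from 3.25 and 1.68 to 91.3 and 82.5, and the kinase gene Cdk16 from 35.3 and 22.2 to 104 and 93.8, a rise of 3.43-fold. The call of Ankrd22 was lost without 2-cell replicate 1 and that of Cdk16 with either 2-cell library left out (limma adjusted p 0.0501 to 0.148 in those fits).

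Regulators that have been proposed to drive genome activation moved in both directions. Of 24 such genes, 14 were higher and 5 lower (9 to 12 and 2 to 4 with 1 library left out). The chromatin proteins Dppa2 and Dppa4 were both higher, with Dppa2 at 64.9 and 52.9 FPKM in zygotes and 221 and 203 in 2-cell embryos. The nuclear receptor Nr5a2 went from 4.08 and 4.63 to 15.8 and 20.7 FPKM, and Klf5 was listed at 1 in both zygote libraries and at 37.7 and 47.3 in 2-cell embryos. The Obox homeobox family split. Obox1, Obox2 and Obox5 fell, the first of them from 2089 and 2030.5 to 115 and 91.7 FPKM, while Obox6 rose. Obox3 also rose, from 5.71 and 6.68 to 1060.2 and 1204, and is named here after its values were seen. The summed level of the 24 genes went from 8520 and 8120 to 4610 and 4600 FPKM, with the falling Obox1, Obox2 and Obox5 the most abundant of them in zygotes. Klf17 was lower, at 361 and 334 against 208 and 207, as was Nfya, a subunit of the factor that binds the CCAAT box, at 19.4 and 19.6 against 12.6 and 9.49. Yap1, the effector of Hippo signalling, did not pass, at 86.3 and 86.8 against 113 and 96.3 (limma adjusted p = 0.18). The call of Nr5a2 was lost with either zygote library left out, that of Dppa2 with either 2-cell library left out, that of Klf17 with any of the 4 libraries left out and that of Nfya in each fit but that without 2-cell replicate 1 (limma adjusted p 0.0549 to 0.187 in those fits).

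Of 18 pluripotency transcription factors, 11 were higher and 1 lower (4 to 12 and 0 with 1 library left out, and 10 and 2 after quantile normalization), with a median log2 fold change of 1.83. Zfp42 was listed at 1 in both zygote libraries and at 31.2 and 35.6 FPKM in 2-cell embryos, and Myc was listed at 1 and at 9.07 and 15.5. Nanog went from 10.4 and 10.9 to 60.4 and 35.2 FPKM, and Sox2 from 1 and 1.02 to 3.21 and 3.23. Pou5f1, which encodes Oct4, did not pass, and its 2-cell libraries at 77.4 and 40.8 FPKM spanned those of the zygotes at 52.5 and 41.4. Sall4 was lower, at 65.9 and 93.8 against 35.2 and 39.5. The calls of Myc and Nanog were lost with either zygote library left out and that of Sall4 with any of the 4 libraries left out (limma adjusted p 0.0533 to 0.212 in those fits). That of Sox2 was lost after quantile normalization, and those of Nanog and Sall4 in the fit of all 8 libraries.

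Genes for the cytoplasmic ribosome rose together. Of 84 genes for cytoplasmic ribosomal proteins, 72 (85.7%) were higher and 0 lower, with a median log2 fold change of 2.81 and a median ratio of 7.23 (37 to 44 higher and 0 to 1 lower with 1 library left out, and 78 and 1 after quantile normalization). Their summed share of all FPKM went from 1.75% and 1.52% in zygotes to 7.69% and 6.63% in 2-cell embryos. The median member was at 54.5 FPKM in zygotes and at 348 in 2-cell embryos. Rps19 went from 5.25 and 5.47 to 570.3 and 423 FPKM (log2 fold change 6.28, standard error 0.19, limma adjusted p = 0.00266), and Rpl3 from 5.73 and 2.77 to 104 and 98.3. Rplp0, of the ribosomal stalk, went from 174 and 109.9 to 1219 and 1511, and Rps2 from 447 and 196 to 1419 and 1172, with zygote replicates far apart. Ribosomal protein genes have many processed pseudogenes that can share their reads, so single members are uncertain. The 12 members that did not pass included Rpl17, at 339.8 and 264 against 350.4 and 292 FPKM, Rps15a, at 67.8 and 72.2 against 45 and 29.4, and the paralogue Rps27l, at 2199.6 and 2693 against 2675 and 1479. These 3 genes were named after their values were seen. The call of Rpl3 was lost with either 2-cell library left out, that of Rplp0 in each fit but that without zygote replicate 1 and that of Rps2 with any of the 4 libraries left out (limma adjusted p 0.0517 to 0.242 in those fits).

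Ribosome biogenesis genes, whose products make and process ribosomal RNA in the nucleolus, followed the same direction. Of 81 members, 54 (66.7%) were higher and 7 lower, with a median log2 fold change of 1.69 (30 to 35 and 2 to 3 with 1 library left out, and 50 and 14 after quantile normalization). The ribosome assembly genes Nop16 and Nol11 were listed at 1 in both zygote libraries and at 80.5 and 113 and at 69.7 and 78.7 FPKM in 2-cell embryos. Fbl, the methyltransferase fibrillarin, went from 9.85 and 6.34 to 62.5 and 54.6, and Nop56, its partner in box C/D particles, from 57.2 and 47.5 to 181 and 159.7. Polr1b, of RNA polymerase I, was listed at 1 in zygotes and at 6.96 and 15.9 in 2-cell embryos. Some abundant nucleolar transcripts went the other way. Npm1, nucleophosmin, was lower at 1789.6 and 1837 against 909 and 1012 FPKM, Dkc1 was lower at 144 and 138 against 104 and 92.4, and the ribosome assembly GTPase Bms1 fell from 56.5 and 54.9 to 9.11 and 9.26. Ncl, nucleolin, did not pass, at 48.9 and 60.5 against 29.9 and 44.6. The calls of Npm1 and Polr1b were lost with either zygote library left out, that of Fbl with either 2-cell library left out, that of Nop56 in each fit but that without zygote replicate 1 and that of Dkc1 with any of the 4 libraries left out (limma adjusted p 0.0516 to 0.179 in those fits).

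Mitochondrial ribosomal proteins showed no such common direction, with 25 of 76 higher and 22 lower and a median log2 fold change of 0.26 (9 to 16 and 5 to 10 with 1 library left out). Mrpl49 was listed at 1 in both zygote libraries and at 55.5 and 60.8 FPKM in 2-cell embryos, while Mrpl48 fell from 364 and 342 to 37.2 and 34.5. The difference from the cytoplasmic ribosome was not tested. Of 63 translation factors, 31 were higher and 10 lower (10 to 15 and 1 to 5 with 1 library left out, and 26 and 17 after quantile normalization). Eif4ebp1, an inhibitor of cap-dependent initiation, went from 3.83 and 2.17 to 76.1 and 77.2 FPKM, and Eif1b fell from 543 and 554 to 51.9 and 67.0. The cap-binding protein gene Eif4e did not pass, at 311 and 253 against 378 and 398. Of 20 aminoacyl tRNA synthetases, which load tRNAs, 6 were higher and 7 lower (1 to 5 and 2 to 3). Mars was listed at 1 in zygotes and at 15.5 and 13.7 in 2-cell embryos, while Lars fell from 9.52 and 9.13 to 1.54 and 1.28.

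Among the genes of the transcription machinery, more were higher than lower, which was also so for all genes (35.1% and 16.1%). Of 59 genes of RNA polymerase II and the general transcription factors, 28 (47.5%) were higher and 7 (11.9%) lower, with a median log2 fold change of 0.75. With 1 library left out the counts were 10 to 14 and 4 to 5, after median-ratio scaling 23 and 12, and after quantile normalization 25 and 17. The polymerase subunits Polr2a and Polr2b went from 1.54 and 1.16 to 8.89 and 6.50 FPKM and from 10.6 and 10.8 to 51.1 and 38.5. Cdk9, the kinase that releases paused polymerase, went from 4.56 and 4.21 to 47.1 and 36.9 FPKM (log2 fold change 2.99, standard error 0.17, limma adjusted p = 0.0031), and Gtf2h4, a subunit of TFIIH, from 1.93 and 1.37 to 39.9 and 39.2. Tbp, the TATA-binding protein, did not pass, at 99.8 and 70.8 against 65.5 and 113. The transcripts that fell included Gtf2b, for TFIIB, at 1161 and 836 against 137 and 115, and Gtf2a1l, a germ cell form of a TFIIA subunit, at 54.1 and 61.8 against 6.20 and 8.04. The calls of Polr2a and Polr2b were lost with either zygote library left out and that of Gtf2b with either 2-cell library left out (limma adjusted p 0.0547 to 0.0834 in those fits).

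Spliceosome genes moved in both directions, with a share of higher genes near that of all genes. Of 70 members, 23 (32.9%) were higher and 18 (25.7%) lower (11 to 14 and 7 to 9 with 1 library left out). Cdc5l, of the Prp19 complex, went from 1.51 and 1 to 150.4 and 242 FPKM, and Snrpc, of the U1 particle, from 14.1 and 11.4 to 706 and 579. In contrast, the core protein genes Snrpd1 and Snrpd3 fell, from 958 and 1037 to 233 and 242 and from 825 and 679 to 158 and 129, and Sf3b1, of the U2 particle, from 101 and 99.2 to 29.6 and 29.2. Nuclear pore and transport genes gave 22 higher and 12 lower of 51 (9 to 14 and 3 to 6). The importin Kpna1 was listed at 1 in zygotes and at 127 and 119 FPKM in 2-cell embryos, while Kpna7, the importin of oocytes and early embryos, fell from 157 and 103 to 22.6 and 21.5. The call of Snrpd3 was lost without zygote replicate 1 and that of Kpna7 with either 2-cell library left out (limma adjusted p 0.0522 to 0.0914 in those fits).

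For protein folding and turnover, shares were nearer to those of all genes. Of 76 heat shock proteins and chaperonins, 32 were higher and 13 lower (12 to 29 and 5 to 8 with 1 library left out, and 27 and 23 after quantile normalization). Cct6a, of the chaperonin for actin and tubulin, went from 1.21 and 1 to 111 and 120.1 FPKM, and Dnajb14 was listed at 1 in zygotes and at 142 and 127 in 2-cell embryos. Hsp90aa1 fell from 1054 and 1199 to 195 and 182 FPKM and Dnajb4 from 484 and 568 to 33.4 and 35.3. Hspa1b, an inducible Hsp70 gene known to be transcribed in the first hours of activation, was listed at 1 in 3 of the 4 libraries and at 1.26 in 2-cell replicate 1. Of 47 proteasome subunit genes, 19 were higher and 11 lower (8 to 11 and 2 to 4). Psmd13 was listed at 1 in zygotes and at 21.9 and 17.2 FPKM in 2-cell embryos.

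**Figure D5:**
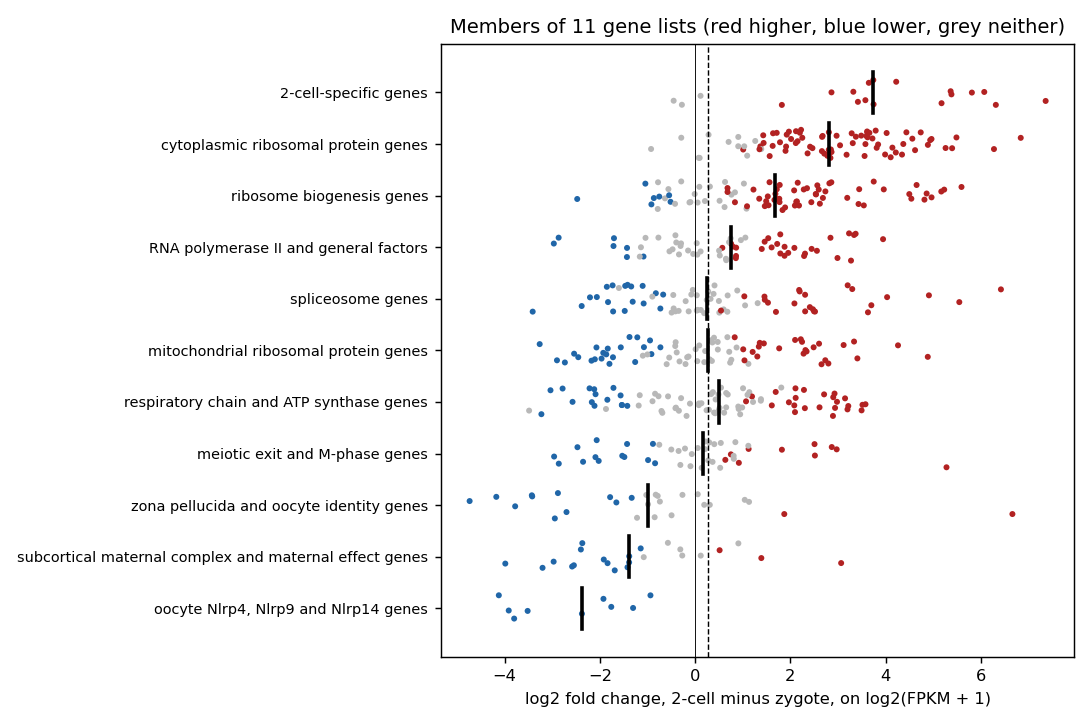
Log2 fold change of each member of 11 gene lists (x axis, 2-cell minus zygote on log2(FPKM + 1); vertical jitter only for display), red where called higher, blue where called lower and grey otherwise. Black bars are list medians and the dashed line is the median of all genes, 0.275. The medians run from 3.74 for 2-cell-specific genes to -2.38 for the oocyte Nlrp genes.

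Among the maternal lists, the oocyte Nlrp genes fell together. Of 9 oocyte Nlrp4, Nlrp9 and Nlrp14 genes, which belong to a family of NACHT and leucine-rich repeat proteins, 9 were lower (6 to 9 with 1 library left out), with a median log2 fold change of -2.38. Nlrp4f went from 1084 and 1226 to 80.4 and 71.0 FPKM, and Nlrp4a from 512 and 668 to 33.3 and 32.0. Nlrp14 went from 439.9 and 392 to 183 and 154, 2.47-fold lower, while its call was lost in each fit but that without 2-cell replicate 1 (limma adjusted p 0.057 to 0.0753). These genes are related copies that may share reads. Their summed level went from 3170 and 3420 to 516 and 462 FPKM.

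The subcortical maternal complex lies under the membrane of the egg and is needed for the first cleavages. Together with other maternal effect genes it made a list of 23 members, of which 14 were lower and 3 higher (9 to 11 and 1 to 2 with 1 library left out), with a median log2 fold change of -1.39. Ooep, a member of the complex, fell from 681 and 599.9 to 43.4 and 35.7 FPKM (log2 fold change -3.99, standard error 0.16, limma adjusted p = 0.00266). Nlrp5, which encodes MATER, went from 210.1 and 250.4 to 61.1 and 58.8, and Padi6 from 546 and 435 to 96.7 and 86.7, while Tle6, of the same complex, did not pass, at 164 and 79.3 against 72.7 and 80.4. The chromatin factor Npm2, a nucleoplasmin, went from 836 and 689 to 134 and 124 FPKM, Zar1 from 406 and 295 to 59.3 and 54.7, and Zfp57, which guards imprints, from 1325 and 1135 to 125 and 140.2. Dppa3 (Stella) fell 2.2-fold and was still at 2958 and 2472 FPKM in 2-cell embryos. Its call was also lost after median-ratio scaling and quantile normalization. The members that were higher were Hsf1, the heat shock factor, Trim28, a corepressor, and the mismatch repair gene Pms2, which went from 3.22 and 2.91 to 33.0 and 33.1, whereas its relative Pms1 fell. The call of Zar1 was lost with either 2-cell library left out, that of Padi6 without 2-cell replicate 2, that of Dppa3 in each fit but that without 2-cell replicate 1 and that of Hsf1 without 2-cell replicate 1 (limma adjusted p 0.0501 to 0.361 in those fits).

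Genes of oocyte identity differed among themselves. Of 27 members, 11 were lower and 2 higher (6 to 8 and 1 to 4 with 1 library left out, and 17 and 3 after quantile normalization). The 3 zona pellucida genes Zp1, Zp2 and Zp3 did not pass, although Zp2 was called lower with a filter on low values, after median-ratio scaling, after quantile normalization and without 2-cell replicate 2. Zp3 was measured at 112 and 67.5 FPKM in zygotes and 115 and 70.9 in 2-cell embryos, Zp2 at 117 and 111 and 53.7 and 76.1, and Zp1 at 73.6 and 41.8 and 38.0 and 55.7. Of the growth factors of the oocyte, Bmp15 fell from 1883 and 1799.6 to 531 and 536 FPKM, and Gdf9 narrowly missed the threshold, at 639 and 506 against 195 and 304 (limma adjusted p = 0.0504), and was called lower in 5 alternatives. Oosp1, an oocyte-secreted protein, was among the most abundant transcripts of both stages and did not pass, at 6778 and 8040.4 against 4936 and 3711 (limma adjusted p = 0.158), except with a filter on low values. The 2 members that rose were Rfpl4b, listed at 1 in zygotes and at 172 and 236 in 2-cell embryos, and Sohlh1, listed at 1 and at 5.94 and 6.73. The calls of Bmp15 and Sohlh1 were lost with either zygote library left out (limma adjusted p 0.0523 to 0.0622 in those fits).

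Regulators of meiosis and M phase moved in both directions. Of 44 genes, 13 were lower and 10 higher (4 to 9 and 3 to 4 with 1 library left out, and 15 and 6 after quantile normalization). Those that fell included Mos, the kinase that holds the egg in metaphase, from 23.5 and 19.4 to 4.17 and 4.30 FPKM, Fbxo43 (Emi2), an inhibitor of the anaphase-promoting complex, from 42.9 and 51.4 to 9.43 and 12.3, and Aurkc, the Aurora kinase of germ cells, from 759 and 651 to 130.2 and 122. Ccnb2 and Ccnb3, both B-type cyclins, fell from 249 and 240.5 to 60.0 and 55.4 and from 15.0 and 17.6 to 1.14 and 1.62. Those that rose included Aurkb, the mitotic Aurora kinase, from 6.36 and 3.09 to 42.2 and 41.9, and the phosphatase Cdc25c, from 3.27 and 1.36 to 128 and 116. The cyclin gene Ccnb1 did not pass, at 1179 and 904 against 589.8 and 635, but was called lower in 3 alternatives. The oocyte kinase gene Wee2 did not pass either, at 307 and 327 against 523 and 405. The calls of Aurkb and Cdc25c were lost with either 2-cell library left out, that of Mos without zygote replicate 1 and that of Fbxo43 in each fit but that without 2-cell replicate 2 (limma adjusted p 0.0522 to 0.107 in those fits).

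Genes whose products store or remove maternal mRNAs moved in both directions. Of 33 genes for deadenylation and decay, 9 were lower and 11 higher (3 to 6 and 4 to 7 with 1 library left out). Beside Btg4, the deadenylase subunit Cnot6l fell from 187 and 255 to 44.8 and 51.2 FPKM and Pabpn1l, the poly(A)-binding partner of Btg4 in eggs, from 51.0 and 63.8 to 4.67 and 2.53. Cnot7, a catalytic subunit, did not pass, at 383 and 457 against 239 and 317. Tob1, a relative of Btg4, rose from 1.04 and 1.47 to 48.0 and 69.9. Of 31 storage and translation genes, 12 were lower and 7 higher (2 to 4 and 2 to 5, and 12 and 4 with a filter on low values). Dazl, which promotes translation in germ cells, fell from 413 and 564 to 71.4 and 57.5 FPKM, and Patl2, Cpeb1, Igf2bp2 and Eif4e1b were lower too, by 2.11 to 3.91-fold. Ybx2 (MSY2), the main packaging protein of oocyte mRNA, did not pass, at 35.5 and 30.4 against 45.8 and 28.4. Of the poly(A)-binding proteins, the embryonic Pabpc1l went from 44.1 and 21.4 to 4.01 and 6.29 and the somatic Pabpc1 from 1.56 and 1 to 90.9 and 65.5. The calls of Patl2, Cpeb1 and Pabpc1l were lost with any of the 4 libraries left out, those of Cnot6l and Dazl with either 2-cell library left out, that of Pabpn1l with either zygote library left out, that of Igf2bp2 in each fit but that without zygote replicate 1 and that of Eif4e1b in each fit but that without 2-cell replicate 1 (limma adjusted p 0.0524 to 0.204 in those fits).

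Of 32 germline meiotic genes, 7 were lower and 9 higher (2 to 5 and 2 to 10 with 1 library left out, and 12 and 9 after quantile normalization). The piRNA pathway gene Tdrd12 fell from 209 and 181 to 9.91 and 9.55 FPKM. Trip13, an ATPase of meiotic and mitotic checkpoints, rose from 2.57 and 3.19 to 47.3 and 37.0. For Sycp3 and Hormad1, of the meiotic chromosome axis, the zygote replicates were far apart, at 39.3 and 86.2 and at 9.82 and 41.9 FPKM, and neither passed. Sycp3, at 168 and 214 in 2-cell embryos, was called higher in 4 alternatives, and Hormad1, at 70.8 and 58.1, without zygote replicate 2.

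Chromatin genes moved in both directions. Histone genes, of which the replication-dependent ones lack a poly(A) tail and are not well captured by oligo-dT, gave 6 higher and 8 lower of 48 (3 to 9 and 2 to 5 with 1 library left out, and 6 and 17 after quantile normalization). H1foo fell and H2afz rose, as given above, while H3f3a, for the variant H3.3, did not pass, at 616 and 589.5 against 644 and 737 FPKM. Among 18 genes of DNA methylation and demethylation, 6 were higher and 5 lower (2 to 7 and 3 to 4). The maintenance methyltransferase Dnmt1 fell from 74.3 and 93.7 to 10.6 and 8.98 FPKM (log2 fold change -2.97, standard error 0.18, limma adjusted p = 0.0033), and the de novo enzyme Dnmt3a from 50.0 and 31.4 to 11 and 11.1. Tet3, the dioxygenase of the zygote, fell from 70.0 and 104 to 11.7 and 18.1, while Tet1 was listed at 1 in both zygote libraries and at 6.64 and 5.44 in 2-cell embryos. The stress-response genes Gadd45a and Gadd45b rose, the latter from 3.19 and 1.89 to 145 and 146. The call of Tet1 was lost with either zygote library left out, that of Tet3 with any of the 4 libraries left out and that of Dnmt3a in each fit but that without zygote replicate 2 (limma adjusted p 0.0501 to 0.146 in those fits).

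The enzymes that add or remove ubiquitin on H2A are the subject of the study. Of 28 such genes, 10 were higher and 6 lower (3 to 8 and 2 to 4 with 1 library left out, and 5 and 7 after quantile normalization), close to the shares of all genes. Rnf2, the ligase of polycomb complex PRC1, did not pass, at 74.3 and 120.3 against 93.3 and 115 FPKM (limma adjusted p = 0.754), nor did Usp21, at 34.4 and 23 against 54.9 and 37.4. With the replicate number as a block, Usp21 was called higher. Of other PRC1 subunits, Pcgf1 fell from 1598 and 940.2 to 220.0 and 182 FPKM and Pcgf5 rose from 3.91 and 3.20 to 132 and 187, while Cbx8 was listed at 1 in zygotes and at 16.8 and 19.3 in 2-cell embryos. Usp46, a deubiquitinase, fell from 331 and 383 to 48.4 and 45.5. The call of Pcgf1 was lost in each fit but that without zygote replicate 2 (limma adjusted p 0.0526 to 0.115 in those fits).

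In metabolism, the forms of lactate dehydrogenase changed in opposite directions. Ldhb, the form of the oocyte, was measured at 4697 and 2911 FPKM in zygotes and 479 and 543 in 2-cell embryos, 7.44-fold lower (log2 fold change -2.85, standard error 0.33, limma adjusted p = 0.00979). Ldha was measured at 1.75 and 1 and 57.7 and 46.3 (log2 fold change 4.49, standard error 0.25, limma adjusted p = 0.00293). Of 17 glycolysis genes, 7 were higher and only Ldhb lower (2 to 5 and 0 with 1 library left out, and 5 and 3 after quantile normalization). The glucose transporter Slc2a3 was listed at 1 in zygotes and at 8.06 and 12.5 FPKM in 2-cell embryos, and Pgk1 did not pass, at 31.6 and 23.9 against 40.5 and 43.8. The list's summed level nevertheless dropped from 4930 and 3070 to 912 and 1020 FPKM, most of it from Ldhb. The call of Slc2a3 was lost with either zygote library left out and that of Ldhb with any of the 4 libraries left out (limma adjusted p 0.0509 to 0.0916 in those fits).

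Mitochondrial energy genes moved in both directions. Of 28 genes of pyruvate entry and the TCA cycle, 10 (35.7%) were higher and 9 (32.1%) lower (4 to 5 and 1 to 2 with 1 library left out). Mdh2, malate dehydrogenase, rose from 12.9 and 6.62 to 211 and 246 FPKM and Idh3g, a subunit of isocitrate dehydrogenase, from 4.87 and 2.38 to 43.7 and 53.9. Suclg1, of succinyl-CoA ligase, fell from 25.1 and 18.0 to 1.97 and 2.63, and Fh1, fumarase, from 75.9 and 36.0 to 6.4 and 11.5. Of 84 genes of the respiratory chain and ATP synthase, 24 (28.6%) were higher and 15 (17.9%) lower (6 to 11 and 4 to 6). The core proteins of complex III moved in opposite directions, with Uqcrc1 going from 1.40 and 1 to 24.1 and 23.3 FPKM and Uqcrc2 from 152 and 133 to 16.9 and 16.0. Atp5b, the catalytic subunit of ATP synthase, did not pass, at 298 and 195 against 309 and 466. The calls of Mdh2 and Idh3g were lost with either 2-cell library left out, that of Suclg1 in each fit but that without zygote replicate 2 and that of Fh1 with any of the 4 libraries left out (limma adjusted p 0.0534 to 0.202 in those fits).

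Of 23 genes that license DNA replication, 8 were higher and 4 lower (2 to 5 and 0 to 1 with 1 library left out). Cdc6, the loader of the replicative helicase, rose from 5.58 and 5.25 to 32.3 and 28.8 FPKM and kept its call in each fit, while Gmnn (geminin), an inhibitor of licensing, did not pass, at 484 and 535 against 537 and 529. The large gene families lay close to all genes. Of 302 Zfp zinc finger genes, 113 (37.4%) were higher and 49 (16.2%) lower (40 to 107 and 14 to 30 with 1 library left out). Of 233 solute carriers, 86 (36.9%) were higher and 24 (10.3%) lower (23 to 94 and 9 to 16). Quantile normalization gave 85 higher and 105 lower Zfp genes and 64 higher and 67 lower solute carriers. The thiamine transporter Slc19a3 and the phosphate transporter Slc34a2 were listed at 1 in both zygote libraries, and at 143 and 157 and at 98.9 and 153 FPKM in 2-cell embryos.

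Across these lists, some closely related genes moved in opposite directions, a set put together after the values were seen. The pairs were Ldhb and Ldha, Pabpc1l and Pabpc1, Tet3 and Tet1, Rfpl4 and Rfpl4b, Pcgf1 and Pcgf5, Aurkc and Aurkb, and Kpna7 and Kpna1. In each pair the first gene was called lower and the second higher in 2-cell embryos. The calls of Ldhb, Pabpc1l, Tet3, Tet1, Pcgf1, Aurkb and Kpna7 were lost in some fits with a library left out, as given above. Only for Rfpl4 and Rfpl4b were both calls of a pair kept in all of those fits. The count of such pairs among all related genes was not made.

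Markers of other cells that could accompany an embryo were mostly low. Of 14 markers of cumulus and granulosa cells, 4 were measured, with summed levels of 25.3 to 29.7 FPKM in zygotes and 33.9 to 43 in 2-cell embryos. The defining genes Has2, Fshr and Lhcgr were not analysed here, and the study had left out genes under 1 FPKM in all samples. Cyp19a1, aromatase, was at 26.7 and 22.3 FPKM in zygotes and 1 and 1.78 in 2-cell embryos. Amhr2 was listed at 1 in both zygote libraries and at 29.5 and 32.7 in 2-cell embryos. Of 10 sperm and spermatid markers, 5 were measured, with sums of 18.2 to 26.7 FPKM in zygotes and 29.1 to 32.3 in 2-cell embryos. The protamine gene Prm2 was at 20.1 and 13.5 FPKM in zygotes and 1 and 1.64 in 2-cell embryos, while Prm1 was listed at 1 in both zygote libraries and in 1 of the 2-cell libraries. Of the others, 2 were called higher: Tnp1, listed at 1 in zygotes and at 4.28 and 5.69 in 2-cell embryos, and Ldhc, a lactate dehydrogenase of the testis, at 3.62 and 1.74 and 21.8 and 20.9. The calls of Cyp19a1 and Tnp1 were lost with either zygote library left out, that of Prm2 with any of the 4 libraries left out and that of Ldhc with either 2-cell library left out (limma adjusted p 0.0509 to 0.108 in those fits).

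The other marker lists were at the floor in both zygote libraries, apart from Nanog, at 10.4 and 10.9 FPKM. Nanog is counted among the markers of later lineages and also among the pluripotency factors above. Of 7 oviduct markers, 5 were measured, all listed at 1 in both zygote libraries, and 1 was higher in 2-cell embryos: Epcam, an adhesion gene that early embryos are also known to express, at 44.4 and 82.4 FPKM. The secretory marker Ovgp1 was at 2.46 and 1.31 in 2-cell embryos. Of 7 blood markers, 3 were measured, all listed at 1 in zygotes, with sums of 13.8 and 15.5 FPKM in 2-cell embryos, where the alpha globin genes were above 8 FPKM in 1 library each. Lyz2, a lysozyme of macrophages and other white cells, was called higher, at 3.17 and 4.01 FPKM. Of 7 markers of later lineages, 5 were measured and 4 were higher, with sums of 14.4 and 14.9 in zygotes and 86.2 and 63 in 2-cell embryos. Krt8 and Krt18, keratins of the trophectoderm, were listed at 1 in zygotes and at 9.91 and 9.01 and at 10.8 and 13.7 FPKM in 2-cell embryos, and Cdx2 was not analysed here. The calls of Epcam, Krt18, Lyz2, Nanog and the later-lineage marker Gata6 were lost with either zygote library left out. The part of such cells in the results above was not tested.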

How the data were processed

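RNA-seq was made by Smart-seq2 from pools of 10 embryos. The authors trimmed reads to 50 bases, aligned them to mm9 with TopHat2 2.1.1 and computed FPKM with Cufflinks 2.2.1, and the values as deposited in a single table of genes are FPKM with a floor of 1, without the genes that the authors found under 1 in all samples. The annotation and any further normalization are not given in the sources used here. No counts are given, which leaves library depth unknown, no counting interval can be had, and a gene at the floor can be rare or missed.

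Stages were compared in the 4 WT libraries with limma 3.58.1 in R 4.3.3 on log2(FPKM + 1), two-sided, its prior variance allowed to follow a trend, Benjamini-Hochberg adjusted over all 14392 genes at 0.05. The fit was tested on simulated data that had no floor, so that test does not cover genes at the floor. An exact permutation test of 2 against 2 libraries cannot go below p = 0.333 and was not used. The members, the 35 gene lists and the tests were chosen with earlier results of these data known. Named genes were, per direction, the 12 with the largest ratios and the 6 with the highest levels, and per list its key genes and the 2 called members with the largest fold in each direction. Predicted and clone names were passed over, 8 higher and 4 lower. Genes outside this rule are said to be named after their values were seen, apart from those mentioned without a value of their own. Exceptions are Tdpoz1, Zscan4b, Arg2 and Dux of the 2-cell-specific list. This rule did not select them, and their values are given without that remark. Gene positions and structures came from GENCODE M1 on mm9, promoters from RefSeq on GRCm38.p6, each matched by symbol. Alternatives were other pseudocounts, a filter on low values, other scalings, all 8 libraries, a replicate block, robust empirical Bayes, other thresholds and leaving out each library. Python 3.11.15, numpy 2.4.6, pandas 2.3.3 and matplotlib 3.10.9 were used. Values of the H2AK119ub1 samples were not used here.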

Additional observations from a re-analysis of the deposited data

How the results depend on the processing

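The 5049 higher and 2311 lower genes rest on 2 libraries per stage. With 1 library left out the counts were 1596 to 4956 higher and 782 to 1087 lower, whereas those past 3-fold were 3632 to 3952 and 1184 to 1327. Quantile normalization called 3872 genes higher and 4408 lower. An adjusted p under 0.01 was met by 3027 higher and 914 lower genes. The rule of means gave 1245 higher and 130 lower genes at 10-fold, 5248 and 2246 at 2-fold, and 3069 and 835 where every 2-cell library had to be past 3-fold of every zygote library. All other settings gave counts within 1.5 times those reported. The median log2 fold change of all genes, 0.275 as reported, was 0.393 without a pseudocount, 0.084 with a pseudocount of 10, 0.536 over genes whose mean reached 5 FPKM, 0.174 after median-ratio scaling, 0.281 after sum scaling and -0.067 after quantile normalization. None of the 202 named calls changed sign in any of these fits. For leaving out a library this was fixed in advance, as the ranges of called genes did not overlap. In the fits that left no library out, 25 of the 202 named calls were lost. Not all of these losses are given above. Of the 39 named genes that were not called, 14 changed sign in at least 1 fit. Of 2884 values, 2547 stayed on their side of the threshold, 308 lost a call and 29 gained one.

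With the replicate number as a block, 4688 genes were higher and 2008 lower, and 15 of the 202 named calls were lost. Deviations of same-numbered libraries correlated at 0.11 over genes, and at 0.138 over genes above the floor, from 2 pairs that share only a number. It called 3 aminoacyl tRNA synthetases and 4 histone genes lower, against 7 and 8 without it. Without counts, changes among genes near the floor could not be judged by depth.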
